A study of Mus musculus with 4 samples.

Results

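Lymphocytes carry receptors that decide which tissue they enter and when they leave it, and 9 such genes were followed in the mouse liver: *Klf2*, *S1pr1*, *Ccr7*, *Cxcr4*, *Cxcr5*, *Cxcr6*, *Itga4*, *Itgb7* and *Cd44*. They were taken by name from the 31053 genes of the count matrices, and each was found once in all 4 matrices. Liver mononuclear cells of C57BL/6 mice aged 8 to 10 weeks had been profiled by droplet single-cell RNA sequencing from the 5′ end of transcripts, with 1 library per condition and the number of mice behind a library not stated. The Naïve mice received no ConA. The other 3 groups received Concanavalin A (ConA), a lectin from jack beans that activates T cells and injures the liver, followed by vehicle (ConA+Veh), by the dioxin TCDD (ConA+TCDD) or by FICZ (ConA+FICZ), both of which bind the aryl hydrocarbon receptor, and their cells were collected 24 hours after ConA. FICZ is named in the sample labels and its dose is not given in the sources used here.

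Blood lymphocytes enter lymph nodes by stopping on integrins and following the chemokines CCL19 and CCL21 through CCR7. They leave again when S1PR1 senses sphingosine-1-phosphate, a lipid that is abundant in blood and lymph, and KLF2, a transcription factor of resting lymphocytes, switches on *S1pr1*. Activated T cells are known to lower *Klf2* and *S1pr1*, and the surface protein CD69 pulls S1PR1 inside the cell, so that such cells stay where they are. In the liver, CXCR6 on natural killer T cells and on resident T and NK cells recognises CXCL16 on the lining of the sinusoids, and CD44 and alpha 4 integrins bind ligands on the same vessels.

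Cells were assigned by markers that are not among the 9 genes, with T cells from *Cd3d*, *Cd3e* and *Cd3g*, B cells from a set of B lineage genes that includes *Cd79a*, *Cd79b* and *Ms4a1*, and NK cells from *Ncr1*, *Klre1*, *Klrb1c* and *Klra8*. T-gated cells numbered 490 in Naïve, 804 in ConA+Veh, 646 in ConA+TCDD and 544 in ConA+FICZ, and the same order of libraries is kept wherever values are listed without names. There were, in that order, 110, 207, 141 and 142 NK-gated and 1056, 719, 346 and 741 B-gated cells. In every library all 5 check markers of the B, T and NK gates that the gates had not used were higher in their own gate than in the gate compared with it. Of 4 check markers of innate-like T cells, 4 in Naïve, 2 in ConA+Veh, 4 in ConA+TCDD and 3 in ConA+FICZ were higher there than in CD8 T cells. A level is given in CPM, the unique molecular identifiers (UMIs, 1 per captured transcript molecule) of a gene per 1000000 UMIs of the gate, with an exact Poisson 95% interval. Ratios carry 95% intervals from the binomial distribution, all intervals cover counting error only, and with 1 library per condition no difference had a replicate check or a test. A gene was called past 2-fold when its CPM differed at least 2-fold between the libraries and they held at least 20 of its UMIs together.

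The libraries held 1880 to 2779 cells and 5952445 to 19252211 UMIs, and the cells of the ConA libraries were deeper. The median T-gated cell held 2781 UMIs in Naïve and 7125, 6463 and 8821 in ConA+Veh, ConA+TCDD and ConA+FICZ, so CPM and UMIs per cell can point in different directions and UMIs per cell are given beside the CPM of the main results. Between 16 and 29 cells per library shared a barcode with another library, and leaving them out left every ratio within its counting interval. Hepatocyte-gated cells numbered 127 in ConA+FICZ and 0 to 6 in the other libraries. The median log2 ratio over all genes tested was −0.15 in T-gated, −0.14 in NK-gated and −0.27 in B-gated cells for ConA+Veh over Naïve, against which the values of the members can be read.

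The proximal promoters are shown because KLF-family factors are known to bind CACCC boxes, and *Klf2* and *Itgb7* were among the genes lower after ConA. *Itgb7* was chosen for this after its values had been seen. The sequences are from RefSeq on GRCm38.p6, run 5′ to 3′ from 250 bases before to 50 bases after the gene's start, and have the letters CACCC and their reverse complement GGGTG in capitals. The *Klf2* window lies at chr8:72318812-72319111 on the plus strand and the *Itgb7* window at chr15:102231886-102232185 on the minus strand.
Klf2: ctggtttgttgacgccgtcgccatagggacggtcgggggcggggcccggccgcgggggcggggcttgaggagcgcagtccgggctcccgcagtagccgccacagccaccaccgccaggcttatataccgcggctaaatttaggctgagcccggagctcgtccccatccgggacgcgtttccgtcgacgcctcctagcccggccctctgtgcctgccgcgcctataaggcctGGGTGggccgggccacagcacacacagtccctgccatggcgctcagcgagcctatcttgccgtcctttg
Itgb7: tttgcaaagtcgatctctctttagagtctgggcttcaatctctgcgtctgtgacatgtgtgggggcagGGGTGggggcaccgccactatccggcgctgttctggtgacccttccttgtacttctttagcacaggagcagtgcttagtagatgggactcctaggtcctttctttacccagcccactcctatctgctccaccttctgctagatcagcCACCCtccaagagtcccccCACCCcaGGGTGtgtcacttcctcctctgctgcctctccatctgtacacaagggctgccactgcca
The *Klf2* window held the letters 1 time and the *Itgb7* window 4 times. Of the 9 genes, 6 had a promoter in the table, and the letters occurred 4 times for *Itga4*, 1 time for *Cxcr4* and 0 times for *Cxcr6* and *Cd44*. *S1pr1*, *Ccr7* and *Cxcr5* were not matched. Since 57.5% of the 32851 promoter windows of the same length held these letters, their presence does not single out the members.

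*Klf2* (chr8:72319033-72321656, plus strand, mm10) had the lowest ratio of the 9 members in T-gated cells. In T-gated cells it stood at 895 CPM (852 to 939) in Naïve, 122 (115 to 129) in ConA+Veh, 79.5 (72.8 to 86.6) in ConA+TCDD and 119 (111 to 128) in ConA+FICZ. ConA+Veh was 7.34-fold below Naïve, and no interval of a ConA library reached that of Naïve. The lower level also held in UMIs per cell, with 3.36 *Klf2* UMIs in a Naïve T cell and 1.34, 0.799 and 1.49 in ConA+Veh, ConA+TCDD and ConA+FICZ. After every cell had been thinned to 1000 UMIs, 50.7% of Naïve T cells held a *Klf2* UMI, against 13.6%, 9.35% and 13.8% after ConA. The share of hepatocyte-gated cells of ConA+FICZ with a *Klf2* UMI was 2.33% at that depth, from cells with a median of 1445 UMIs.

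*S1pr1* (chr3:115710433-115715072, minus strand), the receptor that draws lymphocytes out of tissue, was lower in the same libraries. T-gated cells held 132 CPM (116 to 150) in Naïve, 24.1 (21.0 to 27.6) in ConA+Veh, 19.4 (16.2 to 23.1) in ConA+TCDD and 17.4 (14.4 to 20.9) in ConA+FICZ. ConA+Veh was 5.48-fold below Naïve, or −2.46 (−2.73 to −2.18) as a log2 ratio. At 1000 UMIs the share of T cells with an *S1pr1* UMI was 13.4% in Naïve and 4.08%, 2.22% and 2.62% after ConA. Neutrophil-gated cells, whose median depth was 1899 to 2535 UMIs, held it in 0 of 19, 0 of 88, 0 of 33 and 1 of 226 thinned cells in the same order. These allow background shares of up to 17.6%, 4.11%, 10.6% and 2.44% by the exact binomial interval, and such few cells do not separate the T cell shares from background.

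Both egress genes were lower in CPM in every T cell subset that was compared, some of them on few cells or UMIs. In CD8 T cells *Klf2* was at 1120 CPM in Naïve and at 101, 74.3 and 106 in ConA+Veh, ConA+TCDD and ConA+FICZ, which placed ConA+Veh 11.1-fold below Naïve. CD4 T cells, from 903 CPM in Naïve to 99.5 in ConA+Veh, showed a 9.08-fold lower *Klf2*. The subset of naive-type CD8 T cells, which have *Lef1* or another marker of naive T cells and almost no *Ccl5* or *Nkg7*, held most *Klf2* in Naïve, at 1605 CPM, and stood at 148 in ConA+Veh, 38.7 in ConA+TCDD and 178 in ConA+FICZ. Innate-like T cells, gated on *Zbtb16*, held least, at 123 CPM in Naïve and 48.4 in ConA+Veh, and there UMIs per cell went the other way, with a log2 ratio of 0.050. The gate needs a *Zbtb16* UMI and so depends on depth, which had a median of 3626 UMIs in Naïve and 12367 in ConA+Veh. With gates on cells thinned to 1000 UMIs, 13, 3, 2 and 5 innate-like T cells were left. The CD8, CD4 and naive-type gates also need a UMI of a marker and depend on depth. With thinned gates CD8 T cells numbered 96, 160, 74 and 72 and CD4 T cells 21, 29, 10 and 10. Over settings that correct for depth, the *Klf2* log2 ratio of ConA+Veh to Naïve was −3.64 to −3.27 in CD8 and −3.43 to −3.08 in CD4 T cells. *S1pr1* in naive-type CD8 T cells was at 233 CPM in Naïve and at 36.9, 33.9 and 33.9 after ConA, on 48, 6, 7 and 4 UMIs. These cells numbered 65, 35, 29 and 17, and their *Klf2* in ConA+TCDD rested on 8 UMIs. Without cells of over 10% mitochondrial UMIs or fewer than 200 genes, 64, 14, 17 and 8 were left. Of 4 check markers of this gate, 4 in Naïve and 3 in each ConA library were higher than in other CD8 T cells. In each ConA library *Dapl1* was lower than in those cells, at 24.6 against 59.6 CPM in ConA+Veh. The naive-type gate did not leave out cells in cycle. Most of its 35 CD8 T cells in ConA+Veh held *Mki67* or *Top2a*, genes of dividing cells, and few of the 65 in Naïve did. Of 396 CD8 T cells in ConA+Veh, 307 held these genes and 82 were neither in cycle nor naive-type. In Naïve the numbers were 162, 9 and 90. Naive-type is thus only the name of a gate, whose cells differed in cycling between the libraries.

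**Figure D1:**
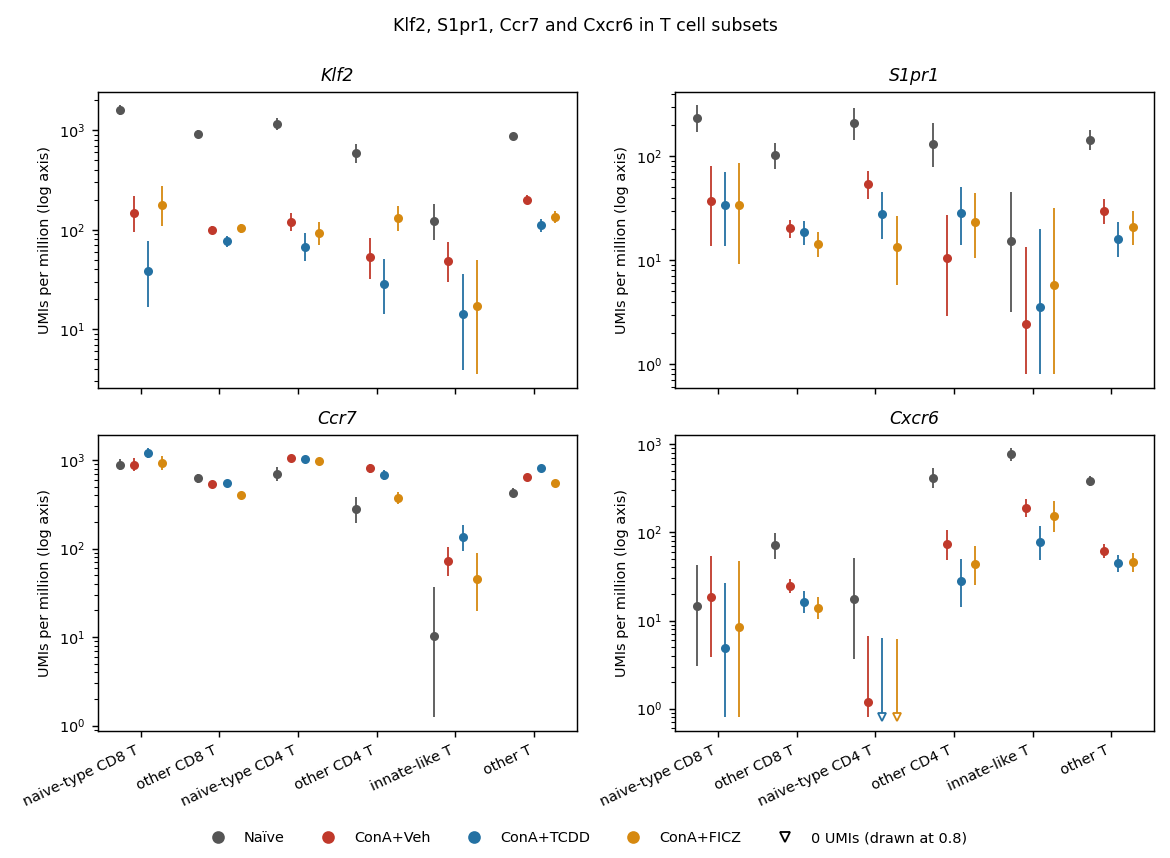
Level of *Klf2*, *S1pr1*, *Ccr7* and *Cxcr6* in 6 T cell subsets, in CPM on a log axis, with 1 point per library and exact Poisson 95% intervals as bars (open triangles, 0 UMIs). *Klf2* and *S1pr1* of Naïve stand above the ConA libraries in every subset, the *S1pr1* intervals of innate-like T cells overlap, and *Ccr7* shows no such gap.

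Most CD8 T cells of the ConA libraries were in cycle by *Mki67* or *Top2a*, with 307 of 396 in ConA+Veh, 160 of 270 in ConA+TCDD and 148 of 244 in ConA+FICZ against 9 of 162 in Naïve. The part of cycling in the lower *Klf2* was not tested. In thinned ConA+Veh T cells *Klf2* was found in 6.56% (3.43 to 11.2) with *Mki67* and 15.8% (13.0 to 19.0) without it. The shares were 8.79% and 9.44% in ConA+TCDD and 4.55% and 15.1% in ConA+FICZ, each pair with overlapping intervals. In Naïve it was 2 of 8 cells with *Mki67* and 51.2% of those without. A lower *Klf2* was also present in CD8 T cells not called cycling. A cell without a UMI of *Mki67* or *Top2a* may still be in cycle. In CD8 T cells that were neither naive-type nor cycling *Klf2* was at 1016 CPM in Naïve, 180 in ConA+Veh, 128 in ConA+TCDD and 155 in ConA+FICZ. ConA+Veh was 5.66-fold below Naïve in those cells. *S1pr1* in the same cells had a log2 ratio of −1.96 (−2.84 to −1.14).

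B-gated and NK-gated cells also held less *Klf2* in CPM. B-gated cells were at 1336 CPM in Naïve, 347 in ConA+Veh, 247 in ConA+TCDD and 341 in ConA+FICZ, and NK-gated cells at 717, 377, 334 and 434. The ratio of ConA+Veh to Naïve was a log2 of −1.95 (−2.04 to −1.86) in B cells and −0.93 (−1.21 to −0.65) in NK cells, against −2.88 (−2.99 to −2.76) in T cells. The 3 intervals did not overlap, so in CPM the gates differed beyond counting error. In UMIs per cell the log2 ratios were smaller, at −0.72 in B cells (3.32 in Naïve and 2.02 in ConA+Veh) and −0.15 in NK cells (1.56 and 1.41). Among the T, NK and B gates of at least 20 cells, in Naïve the order of *Klf2* ran from naive-type CD8 T cells through B cells to innate-like T cells, whereas in each ConA library NK and B cells came first, with overlapping intervals in ConA+Veh. *S1pr1* in B-gated cells was at 87.6 CPM in Naïve and 37.4, 20.01 and 27.9 in ConA+Veh, ConA+TCDD and ConA+FICZ, but in UMIs per cell Naïve and ConA+Veh did not differ (log2 ratio 0.0037). NK-gated cells held 5, 3, 3 and 2 *S1pr1* UMIs, too few to compare.

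*Ccr7* (chr11:99144196-99155077, minus strand), which guides lymphocytes to lymph nodes, did not follow *Klf2* and *S1pr1* in T cells. T-gated cells held 499 CPM (467 to 532) in Naïve, 595 (579 to 612) in ConA+Veh, 673 (653 to 693) in ConA+TCDD and 485 (469 to 502) in ConA+FICZ. ConA+Veh over Naïve gave a log2 ratio of 0.25 (0.15 to 0.36), and UMIs per cell were 1.87 in Naïve and 6.54 in ConA+Veh. NK-gated cells, which held 0, 9, 5 and 1 *Ccr7* UMIs, had a UMI of it in 0%, 1.02%, 0% and 0% of cells thinned to 1000 UMIs, where T cells had it in 28.4%, 35.1%, 37.7% and 26.7%. The NK-gated cells had median depths of 1796, 2760, 2682 and 2740.5 UMIs.

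The subsets differed in *Ccr7*. CD4 T cells were at 510 CPM in Naïve, 992 in ConA+Veh, 896 in ConA+TCDD and 744 in ConA+FICZ, so that ConA+Veh stood 0.96 (0.72 to 1.21) above Naïve on the log2 scale. CD8 T cells were at 705, 544, 586 and 419, with a log2 ratio of −0.37 (−0.51 to −0.23) that in UMIs per cell was the other way, at 3.03 in Naïve and 7.09 in ConA+Veh. Naive-type CD8 T cells held 890 CPM in Naïve and 892 in ConA+Veh, where most of these cells were in cycle. Innate-like T cells, whose gate depends on depth, held 2 *Ccr7* UMIs in Naïve and 30, 38 and 8 in the ConA libraries, or 10.3, 72.5, 135 and 45.7 CPM.

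In B-gated cells *Ccr7* was lower after ConA, at 1054 CPM (1015 to 1094) in Naïve, 359 (341 to 378) in ConA+Veh, 415 (387 to 445) in ConA+TCDD and 279 (263 to 295) in ConA+FICZ. ConA+Veh over Naïve had a log2 ratio of −1.55 (−1.64 to −1.46), opposite in direction to T-gated cells. In UMIs per cell B cells were also lower, at 2.62 in Naïve and 2.10 in ConA+Veh. B-gated cells with and without *Cd86*, *Cd200* or *Mreg*, genes of activated B cells, were 2.68-fold and 2.98-fold below Naïve, so the lower level was in both.

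**Figure D2:**
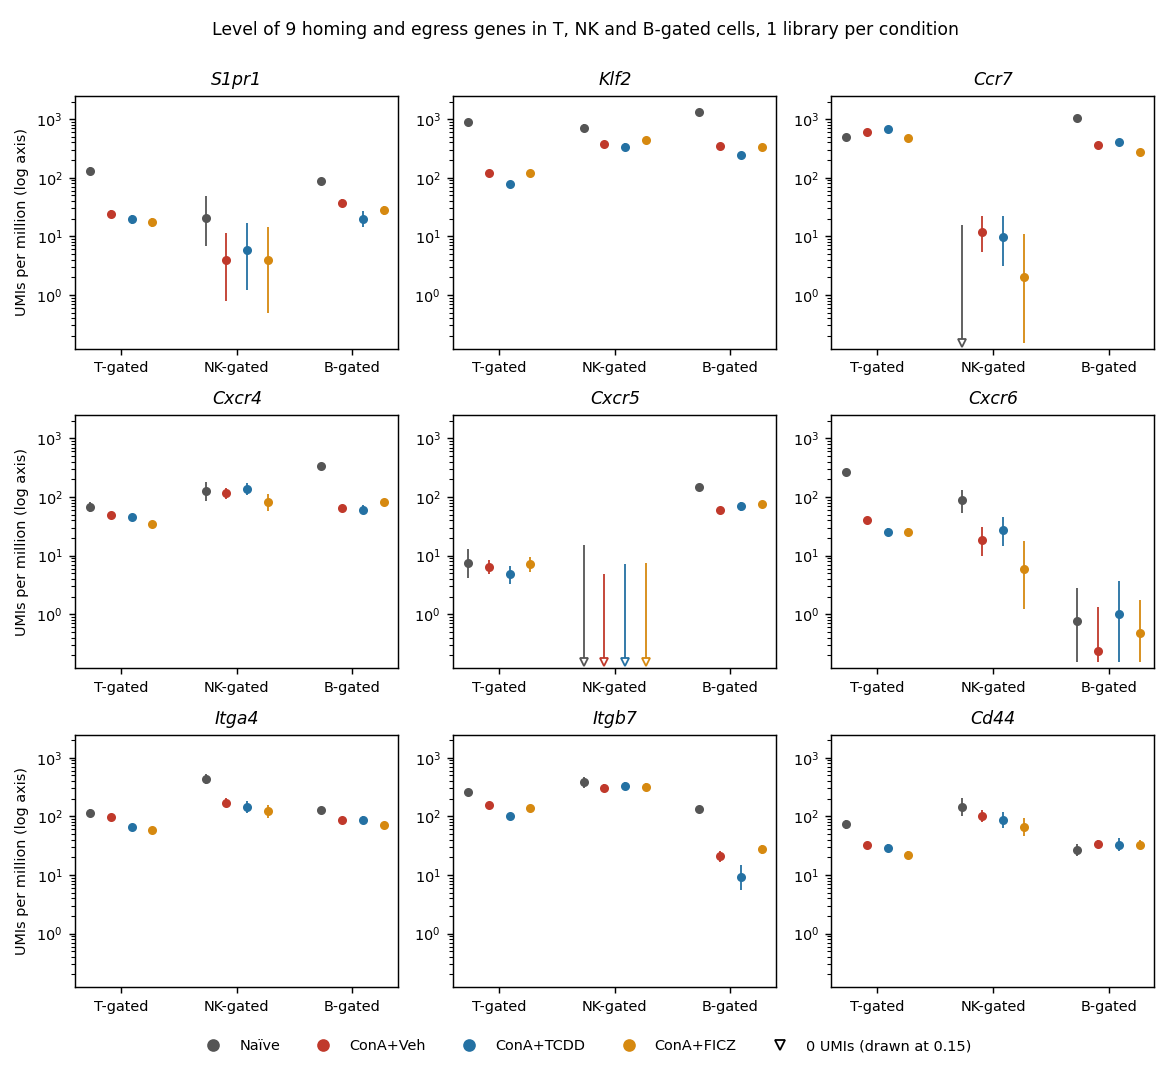
Level of the 9 genes in T-gated, NK-gated and B-gated cells, in CPM on a log axis, with 1 point per library and exact Poisson 95% intervals as bars (open triangles, 0 UMIs). *Klf2* and *S1pr1* of T-gated cells stand highest in Naïve, *Ccr7* is lower after ConA in B-gated cells and not in T-gated cells, and *Cxcr5* has 0 UMIs in NK-gated cells.

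T cells with *Ccr7* and without *Klf2* and *S1pr1* were more frequent after ConA. Among T cells thinned to 1000 UMIs, those with *Ccr7* and also *Klf2* or *S1pr1* were 22.6% (18.9 to 26.7) of cells in Naïve, 6.12% (4.55 to 8.04) in ConA+Veh, 3.33% (2.07 to 5.04) in ConA+TCDD and 3.18% (1.86 to 5.04) in ConA+FICZ. T cells with *Ccr7* alone were 5.76% (3.83 to 8.27), 29.0% (25.8 to 32.3), 34.4% (30.7 to 38.2) and 23.6% (20.02 to 27.4) in the same order. Of the *Ccr7*-positive T cells, 106 of 133 in Naïve also held *Klf2* or *S1pr1*, against 48 of 275 in ConA+Veh, 21 of 238 in ConA+TCDD and 17 of 143 in ConA+FICZ. The share was thus 79.7% in Naïve and 8.82% to 17.5% after ConA. Among all thinned T cells, with or without *Ccr7*, it was 55.0% in Naïve, 16.8% in ConA+Veh, 10.8% in ConA+TCDD and 15.5% in ConA+FICZ. In CD4 and CD8 T cells, *Ccr7*-positive cells held *Klf2* or *S1pr1* in 76.2% and 76.1% in Naïve and 22.2% and 13.1% in ConA+Veh. Among all thinned CD4 and CD8 T cells the shares were 67.7% and 66.9% in Naïve and 18.1% and 12.8% in ConA+Veh. These lie within the intervals of the *Ccr7*-positive cells. Within these subsets the shares are therefore not particular to cells with *Ccr7*.

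*Ccr7* was more frequent in Naïve T cells with *Klf2*, where it was found in 40.3% (34.0 to 46.9) of cells, than in those without, at 16.0% (11.5 to 21.4). In ConA+Veh the shares were 30.8% (22.3 to 40.5) and 35.7% (32.1 to 39.5), which overlap. *S1pr1* was likewise found in 18.1% (13.4 to 23.6) of Naïve T cells with *Klf2* and in 8.66% (5.37 to 13.1) of those without. After ConA, *S1pr1* was found in 6.54% of T cells with *Klf2* and 3.69% of those without in ConA+Veh, in 8.47% and 1.57% in ConA+TCDD and in 6.76% and 1.95% in ConA+FICZ, each pair with overlapping intervals. *Ccr7* was found in 16 of 32 ConA+Veh T cells with *S1pr1* and in 34.4% of those without. B-gated cells with *Ccr7* held *Klf2* or *S1pr1* in 69.2% (65.3 to 72.9) of cells in Naïve, 35.5% (29.3 to 42.1) in ConA+Veh, 33.3% (24.6 to 43.1) in ConA+TCDD and 33.3% (26.4 to 40.9) in ConA+FICZ. Among all thinned B cells the shares were nearly the same in 3 libraries, at 69.0% in Naïve, 34.4% with vehicle and 35.3% with FICZ, and 25.5% with TCDD. These shares are of cells with a UMI at a fixed depth, and a cell without one may still express the gene.

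**Figure D3:**
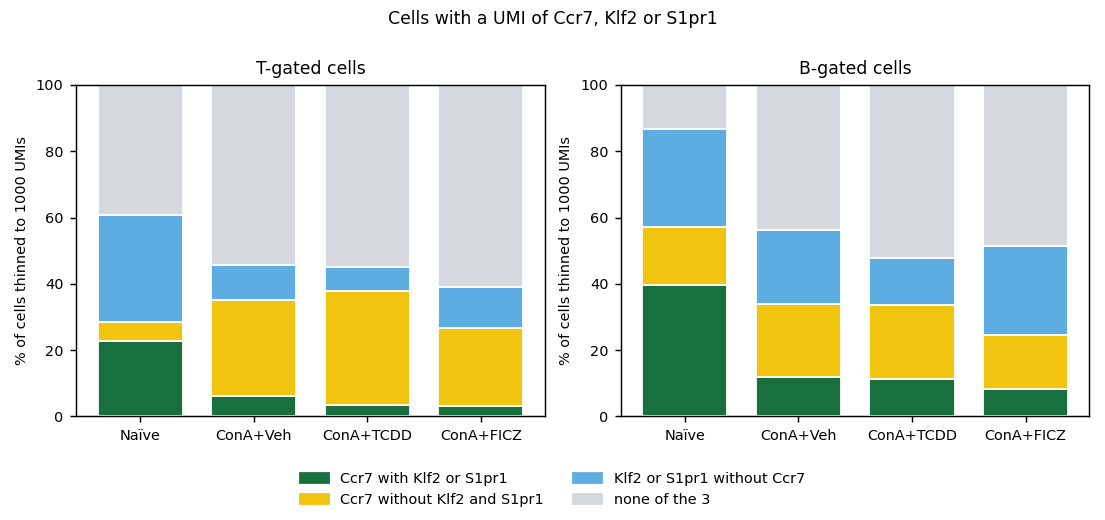
Share of T-gated (left) and B-gated (right) cells, thinned to 1000 UMIs, with a UMI of *Ccr7*, of *Klf2* or *S1pr1*, of both or of none, by library. T cells with *Ccr7* alone make up 5.76% in Naïve and 23.6% to 34.4% in the ConA libraries.

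*Cxcr5* (chr9:44511787-44561877, minus strand), the receptor for the follicle chemokine CXCL13, was a B cell gene here. B-gated cells held 149 CPM in Naïve, 60.8 in ConA+Veh, 69.8 in ConA+TCDD and 74.8 in ConA+FICZ, and ConA+Veh over Naïve had a log2 ratio of −1.30 (−1.53 to −1.07). In UMIs per cell the gap was small, at 0.371 in Naïve and 0.355 in ConA+Veh. T-gated cells held 4.78 to 7.62 CPM, with a log2 ratio of ConA+Veh to Naïve of −0.24 in CPM and 1.31 in UMIs per cell, and NK-gated cells 0 UMIs in all 4 libraries, which allows up to 12.5 CPM in Naïve and 3.89 to 6.00 CPM in the ConA libraries by a floor of 3 counts. CD4 T cells held 1, 20, 13 and 14 *Cxcr5* UMIs, and the interval of the ratio of ConA+Veh to Naïve ran from a log2 of −0.31 to 7.70. The B cell gene *Ebf1*, at 462 to 1661 CPM in B-gated cells, was at 0.453 to 2.72 CPM in T-gated cells.

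*Cxcr4* (chr1:128588199-128592293, minus strand), the receptor for CXCL12, which holds lymphocytes in bone marrow and tissue, was lower after ConA chiefly in B cells. B-gated cells were at 335 CPM (313 to 357) in Naïve, 64.4 (56.9 to 72.5) in ConA+Veh, 61.0 (50.6 to 73.1) in ConA+TCDD and 83.9 (75.4 to 93.2) in ConA+FICZ. The log2 ratio of ConA+Veh to Naïve was −2.38 (−2.58 to −2.18) in B cells, against −0.48 (−0.77 to −0.18) in T cells and −0.10 (−0.71 to 0.54) in NK cells. T-gated cells were at 68.0, 48.9, 46.1 and 34.4 CPM, but at 0.255, 0.537, 0.463 and 0.428 *Cxcr4* UMIs per cell, so the direction in T cells depended on the correction for depth. In NK cells the ratio was 0.67 in UMIs per cell, while B cells remained lower on that scale, with 0.831 in Naïve and 0.376 in ConA+Veh.

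*Cxcr6* (chr9:123806475-123811760, plus strand), the receptor of liver-resident lymphocytes, was lower after ConA in T cells. T-gated cells were at 264 CPM (241 to 288) in Naïve, 41.1 (37.0 to 45.6) in ConA+Veh, 25.3 (21.5 to 29.4) in ConA+TCDD and 25.3 (21.6 to 29.4) in ConA+FICZ. ConA+Veh over Naïve had a log2 ratio of −2.68 (−2.88 to −2.48), and UMIs per cell were 0.990 in Naïve and 0.451 in ConA+Veh. Innate-like T cells held most, with 770 CPM in Naïve, 191 in ConA+Veh, 77.9 in ConA+TCDD and 154 in ConA+FICZ, from 41, 33, 28 and 23 cells. Which cells enter this gate depends on depth, and its part in the lower *Cxcr6* was not tested. CD4 T cells were at 196.3, 23.8, 11.4 and 17.3 CPM and CD8 T cells at 54.5, 24.6, 15.6 and 13.9, and in CD8 T cells the log2 ratio of ConA+Veh to Naïve was −1.15 in CPM and 0.45 in UMIs per cell. B-gated cells, which should lack the gene, held 1 or 2 *Cxcr6* UMIs per library.

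NK-gated cells held *Cxcr6* at 87.6 CPM (54.2 to 134) in Naïve, 18.1 (9.91 to 30.4) in ConA+Veh, 27.2 (14.9 to 45.6) in ConA+TCDD and 6.00 (1.24 to 17.5) in ConA+FICZ, on 21, 14, 14 and 3 UMIs. The interval of Naïve stood above those of all 3 ConA libraries. *Cxcr6* and *Ccr7* were seldom found in the same T cell. Of thinned Naïve T cells, 0 of 93 with *Cxcr6* had *Ccr7*, which allows a share of up to 3.89% by the exact binomial interval, against 35.4% of the 376 cells without *Cxcr6*. After ConA it was 2 of 36 in ConA+Veh, 0 of 18 in ConA+TCDD and 2 of 21 in ConA+FICZ, against 27.4% to 38.8% of the cells without *Cxcr6*. In ConA+FICZ the interval of the cells with *Cxcr6* (1.17% to 30.4%) overlapped that of the cells without it (23.6% to 31.5%).

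The integrin chains *Itga4* (chr2:79255426-79333123, plus strand) and *Itgb7* (chr15:102215995-102231944, minus strand) encode alpha 4 and beta 7, whose pair binds MAdCAM-1 in the gut, while alpha 4 with beta 1 binds VCAM-1. NK-gated cells held *Itga4* at 438 CPM (358 to 530) in Naïve, 172 (144 to 204) in ConA+Veh, 146 (115 to 182) in ConA+TCDD and 122 (93.3 to 157) in ConA+FICZ, and ConA+Veh was 2.54-fold below Naïve. B-gated cells were at 130, 87.7, 87.2 and 70.2 CPM. In UMIs per cell NK cells were lower as well, at 0.955 in Naïve and 0.643 in ConA+Veh, whereas B cells were higher, at 0.323 and 0.512.

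In T-gated cells *Itga4* was at 115 CPM in Naïve, 97.0 in ConA+Veh, 65.2 in ConA+TCDD and 58.8 in ConA+FICZ, and ConA+Veh over Naïve had a log2 ratio of −0.25 (−0.47 to −0.03), which turned to 0.40 as a mean over cells of UMIs per 10000 and to 1.30 in UMIs per cell. Cells with a high mitochondrial share moved with this gene. Without cells that had over 10% mitochondrial UMIs or fewer than 200 genes, the *Itga4* log2 ratio of ConA+Veh to Naïve was −0.90. In naive-type CD8 T cells, whose median mitochondrial share was 13.5% in ConA+Veh and 4.88% in Naïve, *Itga4* was higher in ConA+Veh, with a log2 ratio of 1.04 on 52 and 32 UMIs, and −0.70 without those cells, which left 14 of 35 cells in ConA+Veh. The part of these cells in the level of *Itga4* beyond that was not tested. The naive-type CD8 T cells of ConA+Veh were also mostly in cycle, unlike those of Naïve.

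*Itgb7* separated B cells from the others. B-gated cells were at 135 CPM (121 to 150) in Naïve, 21.0 (16.8 to 25.9) in ConA+Veh, 9.23 (5.47 to 14.6) in ConA+TCDD and 27.4 (22.6 to 32.9) in ConA+FICZ, on 354, 88, 18 and 114 UMIs. T-gated cells were at 261, 154, 102 and 139 CPM, and NK-gated cells at 384, 311, 328 and 320. The log2 ratio of ConA+Veh to Naïve was −2.68 (−3.04 to −2.34) in B cells, −0.76 (−0.91 to −0.60) in T cells and −0.30 (−0.66 to 0.06) in NK cells, and in UMIs per cell T cells were higher after ConA (0.978 in Naïve and 1.69 in ConA+Veh) while B cells remained lower (0.335 and 0.122) and the NK cell ratio was 0.47. Neutrophil-gated cells, chosen as cells that should lack it, held *Itgb7* at 79.7 to 313 CPM and give no background for this gene.

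*Cd44* (chr2:102811141-102901665, minus strand), the hyaluronan receptor, is often used at the protein level to mark T cells that have met antigen. Its T cell level was 73.5 CPM (61.6 to 87.0) in Naïve, 32.5 (28.8 to 36.5) in ConA+Veh, 29.0 (24.97 to 33.4) in ConA+TCDD and 21.7 (18.4 to 25.5) in ConA+FICZ. ConA+Veh over Naïve had a log2 ratio of −1.18 (−1.48 to −0.87) in CPM, but of 0.37 in UMIs per cell. In NK cells it was −0.51 in CPM and 0.26 in UMIs per cell. In Naïve the level was high in CD4 T cells that were not naive-type (169 CPM) and in innate-like T cells (108), and low in naive-type CD8 and CD4 T cells (19.5 and 17.7). B-gated cells held 27.1 to 33.6 CPM in the 4 libraries, with overlapping intervals.

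Over the 9 genes, T-gated cells had 4 lower and 0 higher past 2-fold in ConA+Veh against Naïve (*S1pr1*, *Klf2*, *Cxcr6* and *Cd44*), where 15.5% of all genes tested were lower and 8.96% higher. B-gated cells had 6 of 8 lower (*S1pr1*, *Klf2*, *Ccr7*, *Cxcr4*, *Cxcr5* and *Itgb7*), against 18.7% of all genes, and *Cxcr6* had too few UMIs. NK-gated cells had 2 of 6 lower (*Cxcr6* and *Itga4*), against 13.5% of all genes. CD8 T cells had 3 of 9 lower (*S1pr1*, *Klf2* and *Cxcr6*), against 12.1%, and CD4 T cells had 5 of 9 lower, against 9.77%, where *Itgb7* and *Cd44* joined these 3, although *Cd44* turned to 0.11 as a mean over cells of UMIs per 10000. CD4 T cells also had 1 higher, against 11.4% of all genes, which was *Cxcr5* on 1 UMI in Naïve and 20 in ConA+Veh. Of these calls, *Cd44* in T cells, *S1pr1* in B cells and *Cxcr6* in CD8 T cells were not lower in UMIs per cell. On that scale T-gated cells had 4 members higher past 2-fold (*Ccr7* at a log2 ratio of 1.81, *Cxcr5* at 1.31, *Itga4* at 1.30 and *Cxcr4* at 1.07) and 2 lower (*Klf2* at −1.33 and *Cxcr6* at −1.13). CD8 T cells had 3 higher (*Ccr7*, *Itgb7* and *Itga4*) and 2 lower (*Klf2* and *S1pr1*). The share of all genes past 2-fold was not computed in UMIs per cell. A gene of equal CPM comes out higher on that scale in ConA+Veh, whose cells were deeper (median T-gated cell 7125 UMIs, against 2781 in Naïve). The counts of higher members in UMIs per cell are therefore no result about the members. In CPM the median log2 ratio of the members was −0.76 in T cells, −1.42 in B cells and −0.72 in NK cells.

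**Figure D4:**
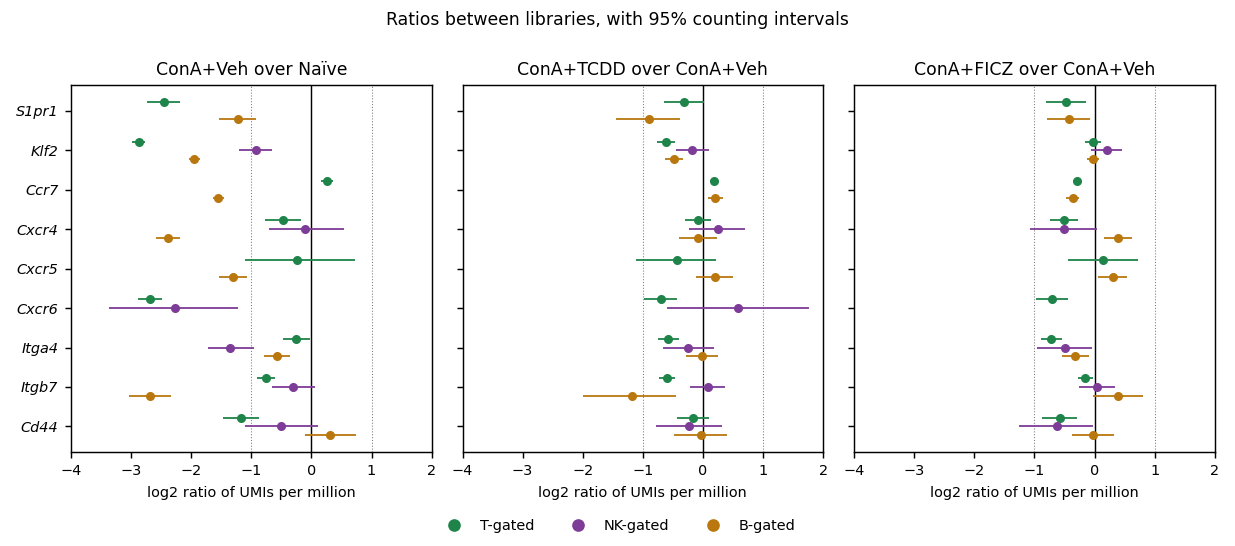
Log2 ratio of CPM for the 9 genes in T-gated, NK-gated and B-gated cells, with 95% counting intervals as bars and dotted lines at 2-fold, for ConA+Veh over Naïve (left), ConA+TCDD over ConA+Veh (middle) and ConA+FICZ over ConA+Veh (right). Genes with fewer than 20 UMIs in the pair of libraries are not drawn, and past 2-fold the middle and right panels hold 1 point, *Itgb7* in B-gated cells with ConA+TCDD.

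No member that was past 2-fold lower in ConA+Veh in a main gate reached the interval of Naïve with TCDD or FICZ. Both comparisons use the same ConA+Veh library, so a deviation of that library enters both. With ConA+TCDD, 0 of the 9 members were past 2-fold in T-gated cells (3.04% of all genes were) and 0 of 6 in NK-gated cells (5.63%), and in B-gated cells 1 of 8 was lower (3.15% of all genes were). That gene was *Itgb7*, at 21.0 CPM with vehicle and 9.23 with TCDD, which gives a ratio on the log2 scale of −1.18 (−2.004 to −0.44) that rests on 18 UMIs in ConA+TCDD. With ConA+FICZ, 0 of the members with enough UMIs (9, 5 and 8 in T, NK and B cells) were past 2-fold in T-gated (4.17% of all genes), NK-gated (6.67%) or B-gated cells (4.56%). The pooled T gate does not show the calls of its subsets. CD4 T cells had 2 of 9 lower with ConA+TCDD (*Cxcr6* and *Itga4*) and 2 of 9 with ConA+FICZ (*S1pr1* and *Cd44*). CD8 T cells had 0 of 9 with either ligand. The share of all genes is not given for these subsets, so these counts are no result about the members.

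Smaller differences exceeded counting error. *Klf2* was lower in ConA+TCDD than in ConA+Veh, with a log2 ratio of −0.62 (−0.77 to −0.46) in T cells and −0.49 (−0.64 to −0.34) in B cells, whereas ConA+FICZ gave −0.03 (−0.16 to 0.10) and −0.02 (−0.13 to 0.08). In CD4 T cells the *Klf2* ratio was −0.94 (−1.45 to −0.46) for ConA+TCDD and 0.12 (−0.27 to 0.50) for ConA+FICZ. Over settings that correct for depth these ranged from −1.85 to −0.66 and from −1.12 to 0.53. Both were lowest with gates on thinned cells, which left 29 CD4 T cells in ConA+Veh and 10 with each ligand. The value for ConA+FICZ in CD4 T cells was thus not stable. The ligands did not differ in this way in every gate. In innate-like T cells the *Klf2* ratio was −1.77 for ConA+TCDD and −1.50 for ConA+FICZ, on 20 UMIs with vehicle, 4 with TCDD and 3 with FICZ. In NK cells it was −0.17 and 0.20, and gating on thinned cells turned the value for ConA+TCDD to 0.34. *Ccr7* in T cells was 0.18 (0.12 to 0.23) higher on the log2 scale with ConA+TCDD and −0.30 (−0.36 to −0.23) with ConA+FICZ. In T-gated cells taken as a whole, *Klf2* and *Ccr7* thus moved in opposite directions with ConA+TCDD, although gating on thinned cells turned the *Ccr7* ratio to −0.11. This did not hold in CD4 T cells, where *Ccr7* was lower as well, at −0.15 (−0.54 to −0.046 over settings that correct for depth). In CD8 T cells the *Ccr7* ratio was 0.11 and ranged from −0.13 to 0.19 over those settings.

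In CPM *Itgb7* and *Itga4* in T cells were also lower with the ligands. *Itgb7* had a log2 ratio of −0.60 (−0.74 to −0.46) with ConA+TCDD and −0.15 (−0.27 to −0.03) with ConA+FICZ. The *Itgb7* ratio for ConA+FICZ was 0.027 in UMIs per cell. It ranged from −0.38 to 0.0024 under settings that correct for depth, so a lower *Itgb7* with ConA+FICZ was not stable. *Itga4* had −0.57 (−0.75 to −0.40) and −0.72 (−0.90 to −0.55), which were −0.30 and −0.34 without the cells of high mitochondrial share. *Cxcr6* in T cells stood at −0.70 (−0.98 to −0.43) and −0.70 (−0.97 to −0.44), and in innate-like T cells at −1.29 (−2.05 to −0.60) and −0.31 (−0.997 to 0.34). *Cxcr4* with ConA+FICZ was −0.51 (−0.74 to −0.27) in T cells and 0.38 (0.15 to 0.62) in B cells. *S1pr1* in B cells was lower with ConA+TCDD, at −0.90 (−1.45 to −0.39). In naive-type CD4 T cells *S1pr1* was lower with ConA+FICZ, at −1.99 (−3.29 to −0.89), from 45 UMIs in ConA+Veh and 8 in ConA+FICZ. In CD8 T cells that were neither naive-type nor cycling, *Cxcr6* was at 81.8 and 48.4 CPM in Naïve and ConA+Veh and at 16.1 and 10.4 with TCDD and FICZ, on 33, 31, 10 and 8 UMIs.

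Of 22 other receptors and regulators of lymphocyte traffic, 20 could be compared in T-gated cells for ConA+Veh over Naïve, and 10 were lower and 0 higher past 2-fold, where 15.5% of all genes tested were lower and 8.96% higher. They include *S1pr4*, another sphingosine-1-phosphate receptor (102 CPM in Naïve and 32.4 in ConA+Veh), *Klf3*, a relative of *Klf2* (182 and 41.8), *Itga1*, a collagen-binding integrin chain of resident cells (28.8 and 3.28), and the inflammatory chemokine receptor *Cxcr3* (113 and 45.1). *Rgs1*, which dampens chemokine receptor signals, was at 456 and 183. The median log2 ratio of the list was −0.87. Values of this list, also those below for B and NK cells, are in CPM only. In UMIs per cell the deeper ConA+Veh cells can stand higher where CPM is lower, so the direction on that scale is not given here.

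*Cd69* and *Foxo1* were not among them. *Cd69* in T cells was at 247, 191, 178 and 163 CPM, and *Foxo1*, which lies above *Klf2* in resting T cells, at 86.5, 74.8, 67.2 and 61.3.

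In B-gated cells 3 of 15 listed genes were lower past 2-fold for ConA+Veh over Naïve, near the 18.7% of all genes, namely *Gpr183*, which positions B cells in follicles (313 and 86.3 CPM), *Foxo1* (125 and 58.2) and *Klf3* (85.7 and 35.3). *Cxcr3* (4.57 and 58.2 CPM) and *Ccr2* (0.762 and 5.72, on 2 and 24 UMIs) were higher, where 8.25% of all genes were. In NK-gated cells 3 of 16 were lower, against 13.5% of all genes, which were *S1pr4*, *Rgs1* and *S1pr5*, the sphingosine-1-phosphate receptor that NK cells use to leave tissue (104 and 18.1 CPM, on 25 and 14 UMIs). With ConA+TCDD over ConA+Veh, 2 of 20 listed genes were lower past 2-fold in T cells, 1 of them *Cx3cr1* (3.04% of all genes were past 2-fold either way). In NK cells 1 of 17 was higher, *Itga1*, and 1 lower (5.63% either way). In B cells 1 of 15 was lower, *Ccr2* (3.15% of all genes lower). With ConA+FICZ over ConA+Veh, 2 of 20 were lower in T cells, *S1pr2* and *Cx3cr1* (4.17% either way). In NK cells 1 of 16 was lower, *Cxcr3* (6.67%), and in B cells 1 of 16, *Ccr2* (4.56%). *Ccr2* rests on the 24 UMIs of ConA+Veh, and counts this small are not read as a result.

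The genes most like each member were found by Pearson correlation of log2 levels over the 35 combinations of gate and library with at least 20 cells, which share libraries and depth, so r is a description only. *Klf2* ran closest to *Tsc22d3* (r = 0.90), *Ripor2* (0.89) and *Tagap* (0.88), and *S1pr1* to *Dgka* (0.83), *Cmah* (0.83) and *Slc25a23* (0.81). *Ccr7* ran closest to *Rbm38* (0.85), *Cxcr4* to *Birc3* (0.83), *Cxcr5* to *Cd24a* (0.95) and *Cxcr6* to *Cd226* (0.90). For *Itga4* it was *Fbxo9* (0.79), for *Itgb7* *Selplg* (0.93) and for *Cd44* an unnamed transcript, *AC163354.1* (0.87). Between the members r was highest for *Klf2* and *Cxcr4* (0.70) and for *S1pr1* and *Klf2* (0.67). *Cxcr6* had 0.63 with *Cd44* and 0.60 with *Itgb7*. *Ccr7* had 0.52 with *S1pr1* and −0.02 with *Klf2*.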

How the data were processed

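The authors prepared 4 libraries of liver mononuclear cells with the 10x Genomics 5′ assay, and the deposited values are raw UMI counts per gene and cell, aligned to mm10 and made with Cell Ranger 3.0.2, per the file headers. The processing notes also name bcl2fastq. Everything else was computed from these counts with Python 3.11.15 (pandas 2.3.3, numpy 2.4.6, scipy 1.17.1, and matplotlib 3.10.9 for figures).

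T-gated cells had at least 2 UMIs of *Cd3d*, *Cd3e* and *Cd3g* together and fewer than 2 B genes. B-gated cells had at least 2 of the 4 B genes and no *Cd3* UMI. NK-gated cells had at least 2 of the NK genes, at most 1 *Cd3* UMI and fewer than 2 B genes. Every gate allowed at most 4 UMIs of *Lyz2*, *Csf1r*, *C1qa*, *S100a8* and *S100a9*. T subsets followed in the order CD8 (*Cd8a* or *Cd8b1*), *Foxp3*, gamma delta (*Trdc*), innate-like (*Zbtb16*), CD4 and other. Naive-type cells had *Lef1* or another marker of naive T cells and at most 1 UMI of *Ccl5* and *Nkg7*. No doublet caller was run. The gates limit *Cd3*, B and myeloid markers outside their own lineage as stated, but T-gated and B-gated cells were not screened for NK genes. An alternative left out cells over 3 times the median UMIs of their gate.

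UMIs were summed over a gate and divided by its total. Shares of cells were taken in cells of at least 1000 UMIs, each drawn down at random to that number. Where no UMI was seen, 3 counts served as the floor. The genes named are the 9 members, 22 further genes of the pathway, 10 ligands and, for each member, the genes most correlated with it in log2(CPM + 10) among those with at least 100 UMIs. Check markers, the B genes used as a measure of stray RNA and the high mitochondrial cells are named beside the results they touch. The members, lists and gates were chosen with earlier results of these data known. Gene positions are those of GENCODE vM21 and promoters those of RefSeq. The ratios and their intervals were tested on simulated sums drawn from a Poisson distribution, which is the counting error that the intervals assume. The simulation had no variation between cells or libraries, so it cannot show whether the intervals cover such variation. Some genes of the gates and of the pathway list entered the counts and are not reported here.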

Additional observations from a re-analysis of the deposited data

Results flagged for a closer look

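In T-gated cells *Ccr7* was higher in ConA+Veh than in Naïve, with a log2 ratio of 0.25, and in B-gated cells it was lower, with a log2 ratio of −1.55. The direction of each held under every alternative that corrects for depth, with ranges of 0.12 to 0.67 in T cells and −1.61 to −1.29 in B cells. With ConA+FICZ over ConA+Veh, *Cxcr4* had a log2 ratio of 0.38 in B-gated cells and −0.51 in T-gated cells, with ranges of 0.23 to 0.64 and −0.59 to −0.14. Both pairs are listed because T-gated and B-gated cells, each taken as a whole, moved in opposite directions with intervals that excluded 0. Within T cells the *Ccr7* log2 ratio of ConA+Veh to Naïve was 0.96 in CD4 T cells and −0.37 in CD8 T cells. In CD8 T cells it ranged from −0.55 to 0.33 under settings that correct for depth. The value of the pooled T gate thus does not describe each T cell subset. With 1 library per condition the difference between the cell types was not tested.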

How the results depend on the processing

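Of 1788 ratios recomputed under an alternative setting, 1531 stayed within the counting interval, 249 moved outside it, and in 8 a ratio past 2-fold changed sign. Over all of them 139 changed sign, 35 of these in UMIs per cell and 31 with gates on thinned cells. The lower *Klf2* in T cells, ConA+Veh over Naïve, had log2 ratios of −2.89 to −2.54 under the settings that correct for depth and −1.33 in UMIs per cell, and *S1pr1* had −2.77 to −1.84 and −0.90. In UMIs per cell with no correction for depth, the log2 ratio of ConA+Veh to Naïve was 0.37 for *Cd44* in T cells, 0.44 for *Cd44* in CD8 T cells that were not naive-type, 0.45 for *Cxcr6* in CD8 T cells, 0.050 for *Klf2* and 0.060 for *Itgb7* in innate-like T cells and 0.0037 for *S1pr1* in B cells. As a mean of each cell's UMIs per 10000, *Cd44* in CD4 T cells had 0.11, and without cells of low quality *Itga4* in naive-type CD8 T cells had −0.70. The number of members past 2-fold for ConA+Veh over Naïve was 6 in T cells with UMIs per cell (4 higher, 2 lower), 3 in B cells with UMIs per cell (1 higher, 2 lower), and 1 in NK cells with UMIs per cell, with the mean per 10000 or with at least 50 UMIs. For ConA+TCDD over ConA+Veh in B cells it was 2 with stricter gates (*S1pr1* and *Itgb7*) or no minimum of UMIs, and 0 with gates on thinned cells or without cells over 3 times the median, so *Itgb7* there was not stable. For ConA+FICZ over ConA+Veh it was 1 in T cells with the mean per 10000 (*Itga4*), 1 in NK cells with gates on thinned cells (*Itga4*) and 2 with no minimum, and 1 in B cells with no minimum. The counts in UMIs per cell have no share of all genes beside them. The causes of these changes were not tested. No paired analysis was possible because each group had 1 library, which also means that no library could be left out of a group and that differences between mice, isolations and captures cannot be told apart from those between conditions. Values of gamma delta and *Foxp3* T cells, from 3 to 21 cells per library, were left out of the text.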

Other observations

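The ligands of these receptors were counted over all cells of each library, and *Ccl19*, *Ccl21a* and *Cxcl13* came from 7 or fewer cells per library. *Cxcl13*, the ligand of CXCR5, had 0 UMIs in Naïve and in ConA+FICZ, 273 with vehicle and 1028 with TCDD, and in the last 2 libraries it lay in 5 cells each, with 269 and 932 UMIs in a single cell. *Ccl21a*, a ligand of CCR7, had 222 UMIs in 1 cell of Naïve and 1, 0 and 5 in the ConA libraries. *Ccl19*, the other CCR7 ligand, had 2 UMIs in Naïve and 29, 50 and 25 in the ConA libraries, from 1, 7, 7 and 4 cells.

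*Cxcl16*, the ligand of CXCR6, was found in more cells, with 80, 335, 84 and 251 UMIs in 39, 118, 29 and 117 cells, or 13.4, 17.4, 6.96 and 15.7 CPM. *Vcam1*, which binds alpha 4 beta 1, was at 5.04, 12.3, 2.48 and 7.37 CPM, from 14, 65, 18 and 42 cells, so both were lowest in ConA+TCDD. Levels over all cells also vary with the number of producing cells captured, and the level per producing cell was not compared. *Icam1*, which binds the integrin of *Itgal* and *Itgb2*, was at 77.1, 71.1, 71.6 and 69.4 CPM. *Madcam1* had 0 UMIs in all 4 libraries. *Spns2*, which exports sphingosine-1-phosphate, had 53, 40, 15 and 26 UMIs, or 8.90, 2.08, 1.24 and 1.62 CPM. *Sphk1*, which makes it, had 1, 21, 15 and 49 UMIs, or 0.168, 1.09, 1.24 and 3.06 CPM. *Cxcl12*, the ligand of CXCR4, had 6, 48, 33 and 34 UMIs, or 1.01, 2.49, 2.73 and 2.12 CPM. The 5 cells with most *Cxcl12* held 85.4% of it in ConA+Veh and 97.0% in ConA+TCDD.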
